A study of Rattus norvegicus with 10 samples.

Results

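Matrix metalloproteinases are zinc-dependent endopeptidases that cut proteins of the extracellular matrix and of the cell surface, and the tissue inhibitors of metalloproteinases (Timps) bind and block their active sites. Most of the enzymes are made as inactive precursors, so that the amount of messenger RNA is only the first of several steps that set the activity. In the brain, MMP-9 is known as a neuronal and glial enzyme that acts on perineuronal matrix and synapses, and TIMP-1 as an inhibitor whose messenger RNA is inducible by activity and injury. The set described here held 10 genes, namely the gelatinases Mmp2 and Mmp9, the stromelysin Mmp3, the membrane-type enzymes Mmp14, Mmp15 and Mmp24, and the inhibitors Timp1, Timp2, Timp3 and Timp4. They were found by RefSeq symbol in a matrix of read counts with 32041 rows, and each of the 10 had 1 row.

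RNA-seq had been done in 10 male Sprague-Dawley rats on tissue of the CA3 field and the dentate gyrus from the left hippocampus (the labels also speak of dorsal hippocampus). Both groups carried electrodes in the left lateral amygdala. The 5 sham rats, rats 1 to 5, got no current, while the 5 stimulated rats, rats 6 to 10, were stimulated 2 weeks after surgery with 400 µA at 60 Hz for 30 min, a protocol that evokes status epilepticus, which was ended with diazepam. Tissue was collected 3 months later. Per the study's methods, all enrolled stimulated rats had spontaneous seizures in video-EEG recorded before the end of the experiment. The design compares tissue long after status epilepticus with sham tissue. Stimulation, diazepam and later spontaneous seizures cannot be told apart in it. Since the tissue was taken in bulk, fewer cells of a type and less RNA per cell cannot be told apart either. Counts summed over the rows of the matrix were 13552309 to 24086059 in sham and 15586870 to 21642792 in stimulated rats. A read shared by transcripts may have been counted more than once. Of these sums plus the unaligned reads, the unaligned reads made up 32.8% to 37.1% in sham and 32.0% to 45.1% in stimulated rats. The highest shares were in rats 8, 9 and 10. Markers of neurons summed to 4814 to 5252 CPM (counts divided by the TMM-scaled library size) in sham and to 4706 to 5479 CPM in stimulated rats. Within this list, Rbfox3 was below all sham rats in 4 of the 5 stimulated rats and Snap25 in 3, while Syn1 was above all sham rats in 3.

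None of the 10 genes passed an adjusted p-value of 0.05 in the quasi-likelihood test of edgeR, which called 0% of the 22447 tested rows at that threshold. At an unadjusted p-value under 0.05, 5 of the 10 were called, against 9.86% of all tested rows. All 5, namely Mmp9, Mmp14, Timp1, Mmp2 and Timp3, were higher in stimulated rats, a direction in which 6.7% of all rows were called. No member was called lower in this test, where 3.16% of rows were, although Mmp15 was close to the threshold. Only Mmp9 had an unadjusted p-value under 0.001, against 0.174% of all rows. In no member did the groups separate fully. The background for this was 0.695% of rows with every stimulated rat above every sham rat and 0.597% with every stimulated rat below. The median log2 fold change, stimulated over sham, was 0.32 over the 10 members and 0.01 over all tested rows.

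**Figure D1:**
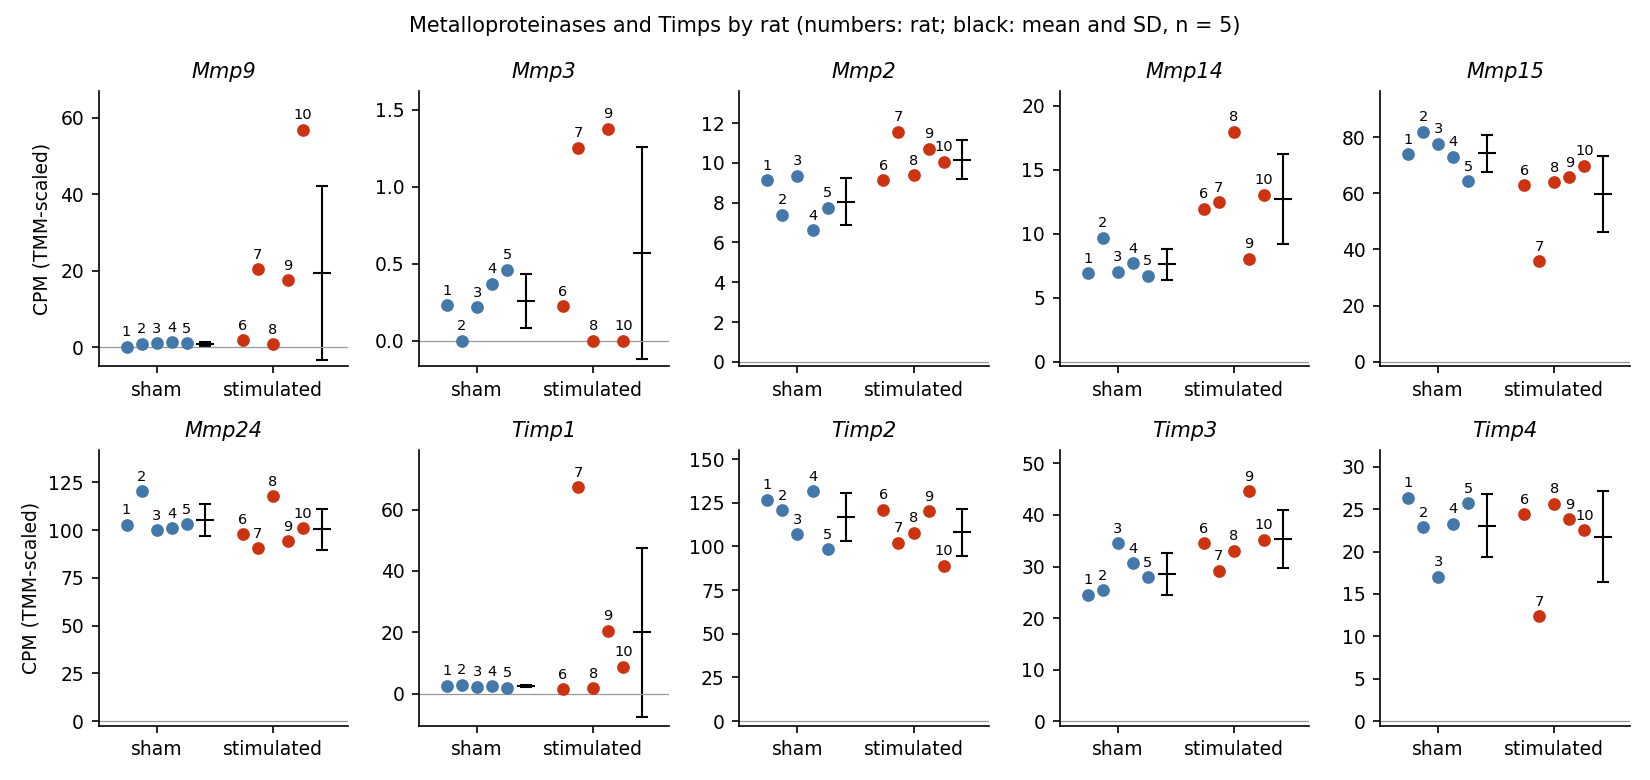
Level of each gene in each rat, in TMM-scaled CPM (vertical axis, own scale in each panel), for sham (blue) and stimulated (red) rats. Points are rats, with the rat number above, and black bars give the mean and SD (n = 5). Mmp9 and Timp1 were far above the sham rats in rats 7, 9 and 10, whereas rats 6 and 8 lay close to the sham rats.

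The gelatinases come first. Mmp9 encodes gelatinase B, which cuts denatured collagen, laminin and several perineuronal and synaptic proteins. Its level was 0.175, 0.992, 1.03, 1.32 and 1.05 CPM in sham rats 1 to 5, and 1.86, 20.4, 0.894, 17.5 and 56.9 CPM in stimulated rats 6 to 10. Thus rats 7, 9 and 10 were far above all sham rats, rat 6 was slightly above the highest of them, and rat 8 lay within their range. Behind these levels were only 3 to 32 reads in sham rats, whereas rats 7, 9 and 10 had 440, 343 and 1102 reads. Stimulated over sham, the log2 fold change was 4.38 (SE 0.915), a 20.8-fold difference (unadjusted p = 0.000307, adjusted p = 0.376). By the unadjusted p-value it ranked 9 of all tested rows, and by the size of its log2 fold change 8. Without rat 10 the log2 fold change was 3.45. Limma-voom, which works on log values, gave an unadjusted p = 0.0609 and an adjusted p = 0.553 for Mmp9.

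Mmp2 encodes gelatinase A, the related enzyme that in most tissues is made constitutively. Sham rats 1 to 5 had 9.13, 7.40, 9.36, 6.61 and 7.75 CPM, and stimulated rats 6 to 10 had 9.14, 11.6, 9.39, 10.7 and 10.1 CPM. Rats 7 to 10 lay above all sham rats, rat 8 only just, and rat 6 lay within the sham range. This gave a log2 fold change of 0.34 (SE 0.138, unadjusted p = 0.028, adjusted p = 0.447). At an unadjusted p of 0.05 the call was lost in 5 of the 10 fits that each left out 1 rat (without rat 2, 4, 5, 7 or 9). Mmp2 was the only member that varied less between stimulated rats (SD of log2 CPM 0.137) than between sham rats (0.208), so that the gelatinases differed both in the size of the group difference and in the spread behind it.

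Mmp3, or stromelysin-1, degrades proteoglycans and can process the MMP-9 precursor. It was at the edge of detection, with 4, 0, 4, 9 and 11 reads in sham rats 1 to 5 and 5, 27, 0, 27 and 0 reads in stimulated rats 6 to 10. The highest counts belonged to rats 7 and 9, but rat 10, which had the most Mmp9, had no Mmp3 read. A count of 0 allows up to 3 reads, or 0.155 CPM in rat 10 and 0.192 CPM in rat 8. Its log2 fold change of 1.07 (SE 0.928, unadjusted p = 0.268, adjusted p = 0.727) was within the spread between rats, and limma-voom turned its sign to -0.13.

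The membrane-type enzymes are anchored to the cell surface. Mmp14 encodes MT1-MMP, which activates the MMP-2 precursor at the cell surface in a complex with TIMP-2. Sham rats had 6.92, 9.69, 7.02, 7.69 and 6.71 CPM and stimulated rats had 11.9, 12.4, 17.9, 8.06 and 13.1 CPM. Here rats 6, 7, 8 and 10 were above all sham rats, with the highest value in rat 8, and rat 9 was inside the sham range. Mmp14 had a log2 fold change of 0.74 (SE 0.191), a 1.67-fold difference (unadjusted p = 0.00173, adjusted p = 0.376). The order of the rats was therefore not that of Mmp9: rat 8 was the lowest stimulated rat for Mmp9 and the highest for Mmp14. Over the 10 fits that each left out 1 rat, the log2 fold change of Mmp14 stayed between 0.57 and 0.87, with unadjusted p-values of 0.000151 to 0.00658.

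Mmp15 encodes MT2-MMP, another membrane-anchored enzyme that can activate the MMP-2 precursor. Its level was 73.9, 81.8, 77.7, 73.0 and 64.3 CPM in sham rats and 62.9, 35.8, 63.9, 65.7 and 69.8 CPM in stimulated rats. Rats 6, 7 and 8 were below all sham rats, and rat 7 stood apart. Mmp15 had a log2 fold change of -0.31 (SE 0.151, unadjusted p = 0.0564, adjusted p = 0.518), and -0.19 without rat 7. It was called lower at an unadjusted p of 0.05 with upper quartile factors, with no filter on low counts, with limma-voom and in 4 of the 10 fits that each left out 1 rat (without rat 5, 7, 9 or 10). Mmp24 encodes MT5-MMP, a membrane-type enzyme of neurons that cuts N-cadherin. Sham rats had 103, 120, 99.8, 101 and 103 CPM and stimulated rats 97.9, 90.6, 118, 94.2 and 101 CPM. The groups overlapped, with rats 6, 7 and 9 below all sham rats, and the log2 fold change of -0.07 (SE 0.0914, unadjusted p = 0.451, adjusted p = 0.833) was within the spread.

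Among the inhibitors, Timp1 had the largest difference. TIMP-1 binds the MMP-9 precursor as well as the active enzyme. Its level was 2.50, 2.82, 2.29, 2.40 and 1.84 CPM in sham rats 1 to 5, and 1.49, 67.4, 1.72, 20.6 and 8.82 CPM in stimulated rats 6 to 10. Rats 7, 9 and 10 were above all sham rats, and rats 6 and 8 were below all of them. Timp1 had a log2 fold change of 3.09 (SE 0.835), an 8.51-fold difference (unadjusted p = 0.00246, adjusted p = 0.376). Without rat 7 it was 1.78, and limma-voom gave an unadjusted p = 0.105 and an adjusted p = 0.585 for Timp1. The SD of log2 CPM was 0.216 between sham and 2.31 between stimulated rats.

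The other inhibitors varied far less. TIMP-3, which unlike its relatives is held in the extracellular matrix and also blocks ADAM17, was the next one. Sham rats had 24.5, 25.4, 34.6, 30.7 and 28.0 CPM of Timp3 and stimulated rats had 34.6, 29.2, 33.1, 44.6 and 35.2 CPM. Rat 9 was highest, rats 6, 9 and 10 were above all sham rats (rat 6 by less than the rounding), and rats 7 and 8 were within the sham range. For Timp3 the log2 fold change was 0.30 (SE 0.130, unadjusted p = 0.0354, adjusted p = 0.464), and it was 0.20 without rat 9. Timp3 was no longer called at an unadjusted p of 0.05 in 6 of the 10 fits that each left out 1 rat (without rat 1, 2, 5, 6, 9 or 10) and with upper quartile scaling factors.

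Timp2, the partner of MT1-MMP, had 127, 121, 107, 132 and 98.4 CPM in sham rats and 121, 102, 108, 120 and 89.0 CPM in stimulated rats. Only rat 10 was outside the sham range, below it, and the log2 fold change was -0.11 (SE 0.108, unadjusted p = 0.311, adjusted p = 0.755). Timp4, an inhibitor with high levels in brain and heart, had 26.4, 22.9, 17.0, 23.3 and 25.7 CPM in sham rats and 24.4, 12.4, 25.7, 23.8 and 22.5 CPM in stimulated rats. Rat 7 alone was below the sham range. The log2 fold change of Timp4 was -0.08 (SE 0.181, unadjusted p = 0.649, adjusted p = 0.910), and without rat 7 it was 0.05.

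**Figure D2:**
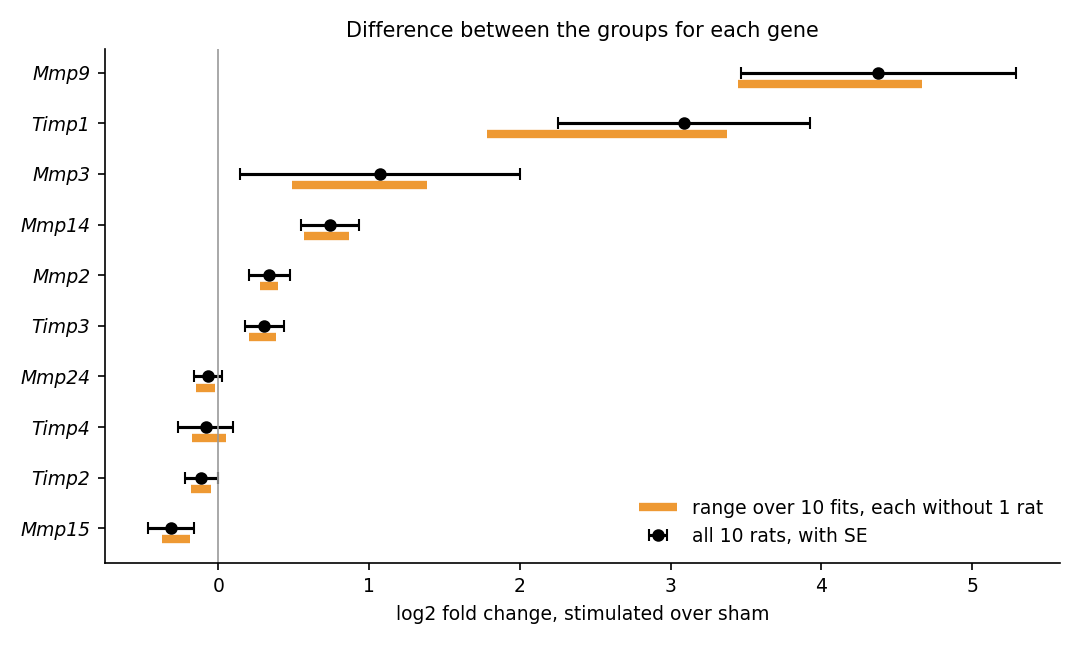
Log2 fold change of each gene, stimulated over sham (horizontal axis), from the edgeR fit of all 10 rats with its standard error (black), and the range over 10 fits that each left out 1 rat (orange). The range for Timp1 reached from 1.78 to 3.38, and Timp4 was the only gene whose range crossed 0.

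All the inhibitors overlap other genes in the RefSeq annotation of the GRCr8 assembly. Timp1, Timp3 and Timp4 lie within the synapsin genes Syn1, Syn3 and Syn2, which encode coat proteins of synaptic vesicles, and Timp2 overlaps Cep295nl. The sources do not state whether strand was used in counting, so reads of such a pair may not be separated. The rows of Syn1 had log2 fold changes of 0.21 and 0.20 (adjusted p = 0.524 and adjusted p = 0.513), against 3.09 for Timp1. In rats 7, 9 and 10 Timp1 had 1451, 403 and 171 reads, and 1 row of Syn1 had 11754, 10052 and 10054 reads. These rats differed far less from each other for the host gene than for Timp1. Both rows of Syn1 were above all sham rats in the same rats. The first row was at 546, 513 and 519 CPM there, against 366 to 461 CPM in sham rats. Whether reads of Syn1 added to the row of Timp1 was not tested. Syn3 had a log2 fold change of 0.05 and the rows of Syn2 had 0.16 and 0.09. Mmp24 overlaps Mmp24os, which had no row in the matrix.

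Mmp9 and Timp1 were highest in the same 3 rats but not in the same proportion. In sham rats 1 to 5 there were 0.0698, 0.351, 0.452, 0.552 and 0.568 Mmp9 reads for each Timp1 read. In stimulated rats 6 to 10 there were 1.24, 0.303, 0.519, 0.851 and 6.44. Rat 10 had the highest ratio (exact 95% interval 5.48 to 7.62), and rat 7 had 0.303 (0.272 to 0.338), which was inside the sham range. Rat 7 was above only sham rat 1, whose ratio rests on 3 Mmp9 reads, and below the other sham rats (0.351 to 0.568). The intervals cover counting error only, and the ratios are of reads, not adjusted for transcript length. Relative to the sham median, Mmp9 was at 19.8-fold in rat 7, 16.9-fold in rat 9 and 55.0-fold in rat 10. Timp1 was at 28.1-fold, 8.57-fold and 3.68-fold in the same rats, so that rat 7 was highest for the inhibitor and rat 10 for the enzyme.

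**Figure D3:**
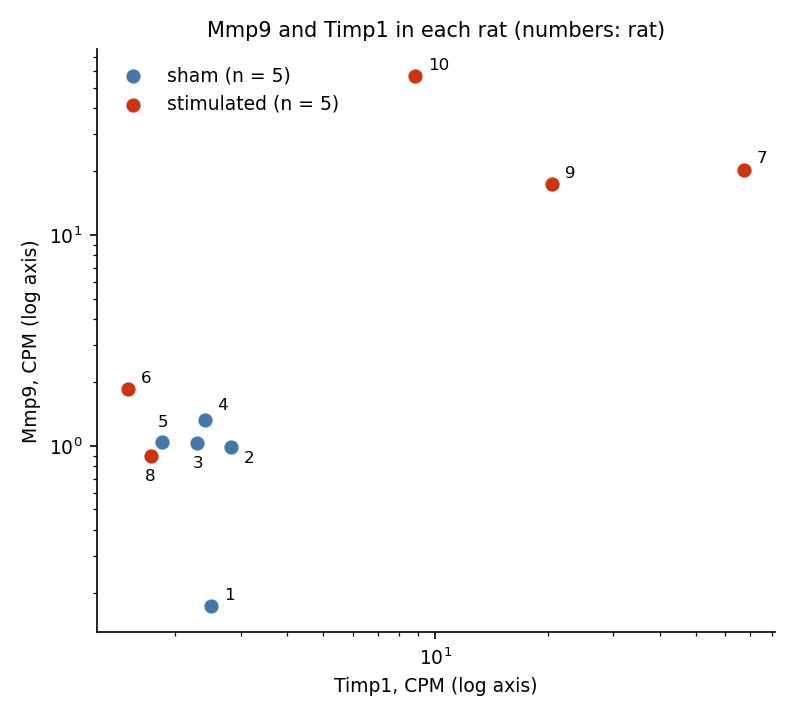
Mmp9 against Timp1 in each rat, both in TMM-scaled CPM on log axes, with rat numbers beside the points (blue sham, red stimulated, n = 5 each). Rats 7, 9 and 10 lie apart from the other 7 rats on both axes, rat 10 with the highest Mmp9 (56.9 CPM) and rat 7 with the highest Timp1 (67.4 CPM).

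The spread between rats was part of this picture. In 9 of the 10 members the SD of log2 CPM was larger in stimulated than in sham rats, while this was so for 69.5% of all tested rows. The median ratio of the SDs was 1.82 over the members and 1.37 over all rows. Timp1 had the largest ratio of the set, at 10.7, followed by Mmp15 at 3.03 and Mmp9 at 2.58, the last with only 3 to 32 reads in sham rats. For Timp2 and Timp3 the ratios were 1.05 and 1.1.

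Marker lists of other cell types were read in the same rats. Markers of astrocytes summed to 4707 to 5357 CPM in sham rats and reached 9610 CPM in rat 7 and 8934 CPM in rat 10. Gfap alone made up 6469 and 5396 CPM of these sums, against 1327 to 1927 CPM in sham rats. Other astrocyte markers went both ways in rat 7. Above all sham rats were Aqp4 with 162 CPM (88.2 to 121 CPM in sham rats), Slc1a3 with 749 CPM (515 to 629 CPM) and Slc1a2 with 193 CPM (126 to 182 CPM). Below all sham rats were Aldh1l1 with 16.4 CPM (40.5 to 50.9 CPM), Gjb6 with 15.1 CPM (39.9 to 55.8 CPM) and Aldoc with 742 CPM (999 to 1306 CPM). Gja1 and Fgfr3 were below them as well, and S100b was within the sham range. Markers of endothelial cells summed to 227 to 242 CPM in sham rats, and were highest in rat 10 (433 CPM) and lowest in rat 7 (210 CPM). In rat 7, Pecam1, Cdh5, Flt1, Esam and, only just, Kdr were above all sham rats. Pecam1 was at 28.1 CPM there (10.5 to 16.9 CPM in sham rats). Cldn5, Tek, Emcn, Slco1a4, Abcb1a and, only just, Tie1 were below all sham rats in rat 7. Slco1a4 was at 8.22 CPM there (33.7 to 38.8 CPM in sham rats). Markers of microglia summed to 388 to 496 CPM in sham rats and to 688 CPM in rat 7, 603 CPM in rat 9 and 529 CPM in rat 10. In rat 7, Aif1, Itgam, Csf1r, C1qa, C1qb, C1qc and Tyrobp were above all sham rats. P2ry12 (8.64 CPM, 9.39 to 15.7 CPM in sham rats), Tmem119 (14.0 CPM, 16.3 to 19.7 CPM) and Trem2 (12.2 CPM, 14.6 to 18.9 CPM) were below all of them there. Cx3cr1 and Cd68 were within the sham range. Of these lists 4 of 10, 5 of 11 and 2 of 12 genes tested had an unadjusted p under 0.05, all higher, a direction called in 6.7% of all rows. The astrocyte and microglial sums were, like Timp1, highest in rat 7. The endothelial sum was highest in rat 10, like Mmp9, and near or below the sham range in rats 7 and 9. In rat 7 that sum joins endothelial markers above and below the sham range. The part of these cell types in the differences was not tested. Neutrophils store MMP-9, and of 9 neutrophil markers in the matrix, Elane was at 0 in every rat. The summed level of the 9 was 5.35 to 7.95 CPM in sham and 5.66 to 9.55 CPM in stimulated rats, with the highest sum in rat 10. Csf3r alone made up 7.79 CPM of that sum, against 2.67 to 6.42 CPM in sham rats. Each other neutrophil marker was at 1.08 CPM or less in rat 10. Of the 3 tested, 0 passed an unadjusted p of 0.05, and the others had too few reads to be tested. The part of neutrophils in the level of Mmp9 was not tested.

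Fibroblast and meningeal markers, a source of Mmp2, Mmp14 and Timp1 in other tissues, summed to 81.1 to 101 CPM in sham rats. The values of stimulated rats 6 to 10 were 89.6, 104, 161, 145 and 121 CPM. Rat 8 was highest in this list as it was for Mmp14. Of 10 markers, 3 had an unadjusted p under 0.05, all higher, a direction called in 6.7% of all rows. Pericyte markers were at 97.7 to 120 CPM in sham and 83.5 to 157 CPM in stimulated rats, with 2 of 7 higher at that threshold. The part of either in the level of Mmp14 was not tested. Markers of oligodendrocytes summed to 1601 to 2333 CPM in sham rats and were lowest in rat 7, at 1329 CPM, and those of the choroid plexus were at 15.7 to 32.1 CPM in sham and 18.3 to 36.1 CPM in stimulated rats, with 0 genes of either list and 0 of 10 neuronal markers past the threshold. Within the lists, the genes with most reads were Gfap (astrocytes), Cldn5 (endothelial cells), Csf1r (microglia), Csf3r (neutrophils), Aebp1 (fibroblasts and meninges), Cspg4 (pericytes), Mbp (oligodendrocytes), Calml4 (choroid plexus) and Nefl (neurons).

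The wider family was read against the 9.86% of all rows with an unadjusted p under 0.05, 6.7% higher and 3.16% lower. Of 15 other matrix metalloproteinases found in the matrix, 7 had enough reads to be tested, with a median log2 fold change of -0.13, and 1 was higher at an unadjusted p under 0.05. This was Mmp19, a secreted enzyme that cuts basement membrane proteins, with 0.871 to 2.29 CPM in sham rats and 6.08 and 5.52 CPM in rats 7 and 10 (log2 fold change 1.19, SE 0.5, unadjusted p = 0.033, adjusted p = 0.459). The collagenases Mmp8 and Mmp13 and the stromelysin Mmp10 had 0 to 5 reads in a rat. Of 7 ADAM proteinases, which shed proteins from the cell surface, 1 was higher and 1 lower. Adam9 had a log2 fold change of 0.26 (unadjusted p = 0.041, adjusted p = 0.480). Adam11, a neuronal member without enzyme activity, had -0.37 (unadjusted p = 0.00498, adjusted p = 0.396), with rats 7 to 10 below all sham rats.

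Some ADAMTS proteinases cut aggrecan-type proteoglycans. Of the 11 ADAMTS genes tested, 2 were higher at an unadjusted p under 0.05 (median log2 fold change 0.19). Over all rows, 6.7% were called higher. Adamts1 stood at 4.63 to 6.64 CPM in sham rats and at 5.43, 168, 6.51, 7.5 and 13.3 CPM in stimulated rats 6 to 10, and Adamts9 at 5.80 to 9.84 CPM and at 8.64, 36.2, 10.3, 10.6 and 13.1 CPM. Both were highest in rat 7, as was Timp1. Their log2 fold changes were 2.91 (SE 0.88, unadjusted p = 0.00528, adjusted p = 0.396) and 0.98 (SE 0.347, unadjusted p = 0.0142, adjusted p = 0.415).

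Of 16 tested activators, inhibitors and partners of these enzymes, 5 were higher at an unadjusted p under 0.05 and 0 lower (median log2 fold change 0.16). The shares over all rows were 6.7% higher and 3.16% lower. Plat encodes tissue plasminogen activator, which generates plasmin, an activator of several precursors. Its groups did not overlap, as in 0.695% of all rows: sham rats reached 40.4 to 48.2 CPM and stimulated rats 6 to 10 had 63.0, 167, 55.5, 78.1 and 123 CPM (log2 fold change 1.12, SE 0.248, unadjusted p = 0.000527, adjusted p = 0.376). The other calls were A2m (alpha-2-macroglobulin, a broad proteinase trap), Furin (a convertase that activates membrane-type precursors), Lcn2 (a binding partner of MMP-9) and Plaur (the urokinase receptor), with log2 fold changes of 0.62, 0.62, 1.28 and 2.41. Plaur rested on 0 to 18 reads in a rat.

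Of 27 substrates that MMP-9 is known to cut, 10 were higher and 1 lower at an unadjusted p under 0.05, with a median log2 fold change of 0.26. Among all rows, 6.7% were called higher and 3.16% lower. The matrix protein genes Fn1 (fibronectin), Tnc (tenascin-C) and Col4a1 (type IV collagen) had log2 fold changes of 0.97, 1.52 and 1.13. Fn1 was at 22.5 to 30.7 CPM in sham rats and at 30.4, 48.0, 42.8, 45.4 and 83.0 CPM in stimulated rats, with the highest value in rat 10, as for Mmp9. Bdnf, a neurotrophin whose precursor MMP-9 can process, was at 4.27 to 6.75 CPM in sham rats and at 4.84, 91.8, 4.79, 71.7 and 23.3 CPM in stimulated rats (log2 fold change 2.81, SE 0.693, unadjusted p = 0.00123, adjusted p = 0.376). Rats 6 and 8 were again within the sham range. The hyaluronan receptor gene Cd44, the proteoglycan gene Ncan (neurocan), Tgfb1 and the thrombin receptor gene F2r were also called, with log2 fold changes of 2.23, 1.06, 0.77 and 0.32.

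**Figure D4:**
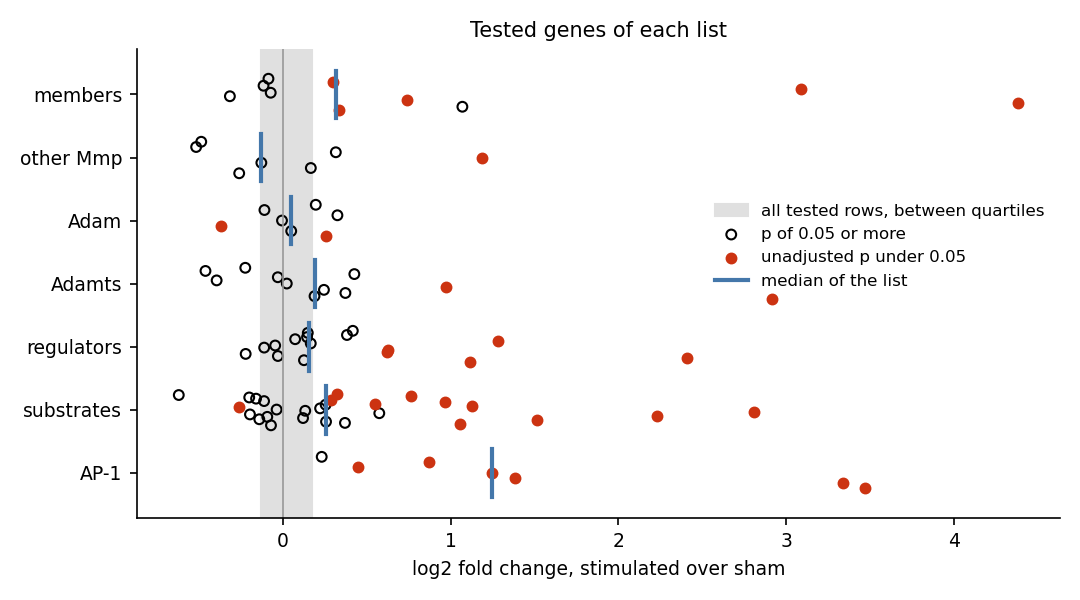
Log2 fold change, stimulated over sham (horizontal axis), of every tested gene in the set (members) and in the related lists, each a row. Red points had an unadjusted p under 0.05, open points did not, blue lines mark the list medians, and the grey band runs between the quartiles of all tested rows (-0.13 to 0.17). The median of the AP-1 list (1.24) was outside the grey band, as were those of the members (0.32), the substrates (0.26) and, only just, the ADAMTS list (0.19).

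AP-1 is a dimer of Fos and Jun proteins, binding sites of which are described in promoters of Mmp9, Mmp3 and Timp1. Of 7 subunit genes, 6 were higher at an unadjusted p under 0.05, against 6.7% of all rows. The median log2 fold change of the 7 was 1.24. Fos was at 3.26 to 5.32 CPM in sham rats and at 5.61, 106, 5.24, 50.3 and 61.7 CPM in stimulated rats 6 to 10 (log2 fold change 3.47, SE 0.693, unadjusted p = 0.000208, adjusted p = 0.376). Fosb was at 6.34 to 9.09 CPM in sham rats and at 9.28, 120, 3.58, 214 and 46.8 CPM in stimulated rats (log2 fold change 3.33, SE 0.802, unadjusted p = 0.00101, adjusted p = 0.376). Junb, Fosl2, Fosl1 and Jun had log2 fold changes of 0.87, 1.24, 1.38 and 0.45. Jun was above all sham rats (171 to 186 CPM) in rats 7, 8 and 9, and below them in rats 6 and 10, at 158 and 166 CPM. For Fos and Fosb, too, rats 7, 9 and 10 were the highest, but in orders that were neither that of Mmp9 nor that of Timp1. As with the members, no gene of these lists passed an adjusted p of 0.05. Of the 23 genes named from these lists as higher, 17 had their highest value in rat 7, 4 in rat 10 and 2 in rat 9.

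**Figure D5:**
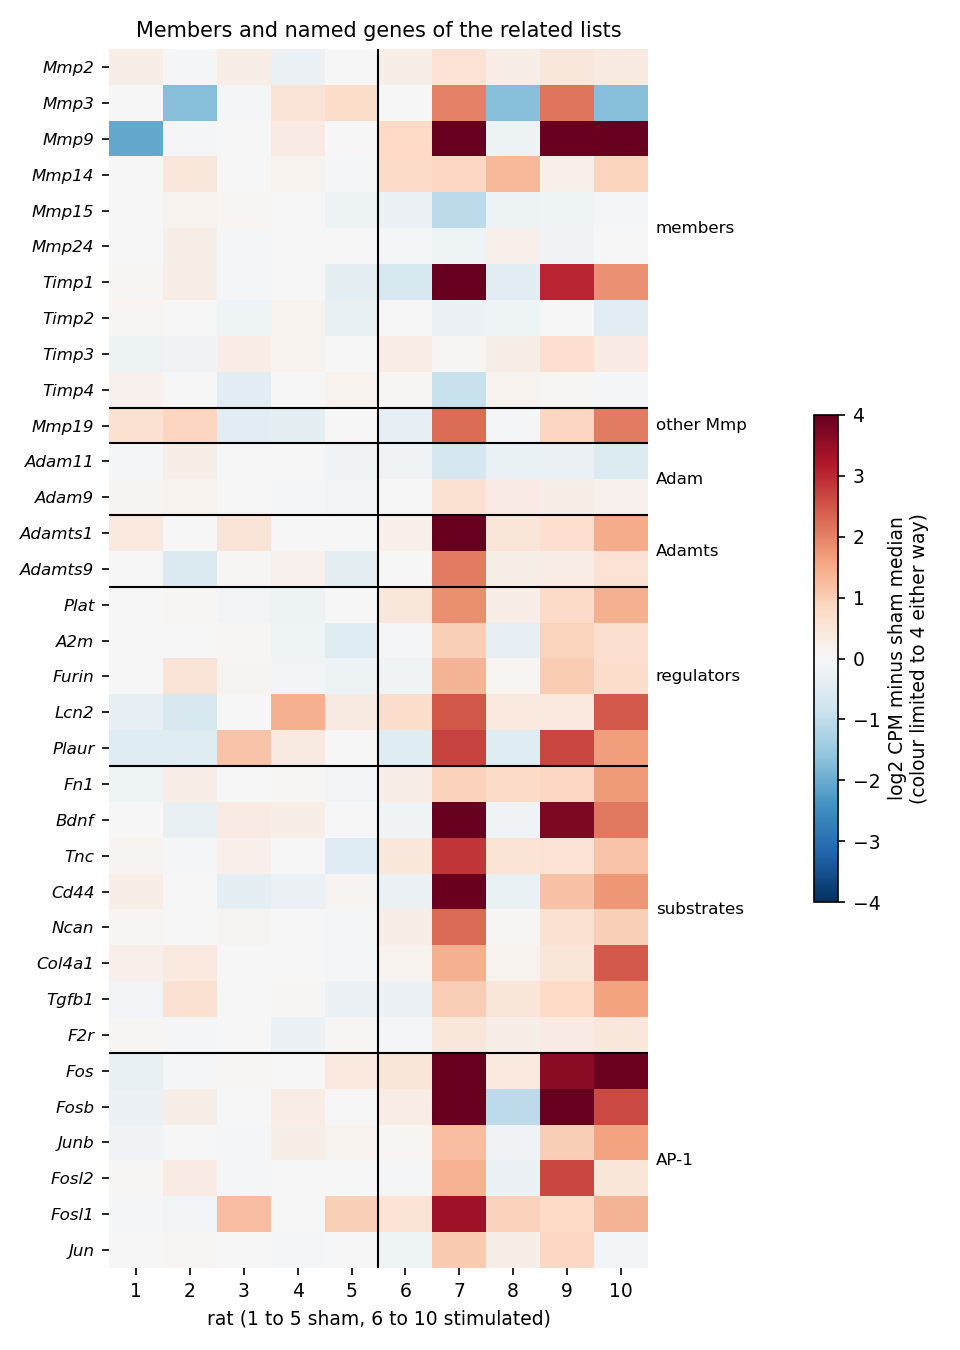
Log2 CPM of each member and each named gene of the related lists (rows) in each rat (columns), minus the median of the sham rats, with red for higher and blue for lower and colours limited to 4 either way. Rats 7, 9 and 10 are red for Mmp9, Timp1, Bdnf and Fos, while Mmp14 is reddest in rat 8.

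The promoter windows of RefSeq (GRCr8, 250 bases before to 50 after each start) held 7 of the 10 members and were searched on both strands for TGANTCA, the core of AP-1 sites, for TGACGTCA, the cyclic AMP response element, and for TGAGTAA, a variant of the former that was added after the sequences had been read. Mmp2, Mmp9 and Mmp14 were not among them. These motifs were in 7.33%, 1.91% and 2.75% of all 27457 promoter windows. Mmp3 had TGAGTCA at -71 and TGAGTAA at -144, Timp1 had TGAGTAA at -108, and the other 5 windows held none of the motifs. The 150 bases before the start are shown for these 2 genes because theirs were the windows with a match. No link between the motifs and the levels was tested. The capitals mark the motifs. The windows are chr8:12925131-12925280 on the + strand for Mmp3 and chrX:3771123-3771272 on the - strand for Timp1. A match is a description of letters, not a site.
Mmp3: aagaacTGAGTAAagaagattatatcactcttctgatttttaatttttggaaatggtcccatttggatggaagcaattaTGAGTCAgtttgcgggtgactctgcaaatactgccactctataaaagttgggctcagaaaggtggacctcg
Timp1: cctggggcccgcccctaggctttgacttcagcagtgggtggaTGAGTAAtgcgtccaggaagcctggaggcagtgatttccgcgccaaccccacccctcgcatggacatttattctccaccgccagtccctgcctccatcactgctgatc

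The genes with a pattern most like that of Mmp9 over the 10 rats were sought among 12311 other genes by Pearson's r of log2 CPM. They were Junb (r = 0.971), the cation channel gene Trpv4 (r = 0.957), Rgs2, a regulator of G protein signalling (r = 0.952), Cd93, a receptor of endothelial and myeloid cells (r = 0.951), and the retinoic acid receptor gene Rara (r = 0.946). For Timp1 they were Odc1, the first enzyme of polyamine synthesis (r = 0.987), the kinase gene Fyn (r = 0.983), the thyrotropin-releasing hormone gene Trh (r = 0.981), Stat3 (r = 0.977) and the adaptor gene Grb2 (r = 0.976). Cd93 was at 5.35 to 8.24 CPM in sham rats and at 8.42, 20.8, 10.3, 18.6 and 50.9 CPM in stimulated rats, so that rat 10 was highest, as for Mmp9. Trh was at 0.293 to 1.12 CPM in sham rats and at 0.633, 438, 0.128, 39.7 and 16.0 CPM in stimulated rats, in the order of Timp1 in rats 7, 9 and 10. Between Mmp9 and Timp1 themselves r was 0.786 and Spearman's rho 0.467. All these coefficients share rats 7, 9 and 10, which lie apart from the other 7 for Mmp9 and Timp1, and are given as descriptions. No coefficient was computed with all of those rats left out, so the part of that gap in them was not tested.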

How the data were processed

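The deposited matrix holds raw read counts for each transcript of every rat. Per the labels and the study's methods, the authors aligned single reads of 36 cycles to rn4 with BWA and counted them with a script of their own. Rows carry RefSeq identifiers although an Ensembl annotation is stated, and the handling of shared reads and of strand is not given in the sources used here. Symbols came from the RefSeq table of GRCr8. The row of unaligned reads (32.0% to 45.1% of all counts) was set aside, and rows under the 30th percentile of summed counts (46) were removed, which left 22447. edgeR 4.0.16 (R 4.3.3) compared the groups by its quasi-likelihood test, with TMM factors and Benjamini-Hochberg adjustment over these rows. Log2 CPM used a prior count of 2. In the study's methods the assay has 1 stimulated animal fewer, not identified, so all labelled rats were kept and each was omitted in turn. Other alternatives were DESeq2 1.42.0, limma 3.58.1 (voom), further edgeR tests, scaling factors and filters. Members and lists were chosen with earlier results of these data known. The text names all members, up to 8 genes of each related list with an unadjusted p under 0.05 (smallest first), the 5 genes most like Mmp9 and the 5 most like Timp1, and, of the markers, genes at 0 throughout and the highest gene. Other genes were chosen after their values were seen. Some genes of the lists are not reported here and were left out of their counts and sums.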

Additional observations from a re-analysis of the deposited data

Results flagged for a closer look

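Dixon's test was applied to log2 CPM of each member in each group, 20 groups of 5 rats in all, of which chance alone gives about 1, and 4 values stood apart. In sham rat 1, Mmp9 was low at 0.175 CPM, which rests on 3 reads (gap over range 0.839). In sham rat 2, Mmp24 was high at 120 CPM (gap over range 0.829). In stimulated rat 7, Mmp15 was low at 35.8 CPM (gap over range 0.845) and Timp4 was low at 12.4 CPM (gap over range 0.822), while Timp1 was at its highest in that rat.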

How the results depend on the processing

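The count of members with an adjusted p under 0.05 was 0 in the quasi-likelihood test, 1 with DESeq2 and 2 each with the likelihood ratio test and the exact test of edgeR, and 0 with limma-voom and the other settings tried. The log2 fold change of Mmp9 was 4.41 with DESeq2 (adjusted p = 0.0129) and 4.402 with the likelihood ratio test (adjusted p = 0.00322) and with the exact test (adjusted p = 0.00457). For Timp1 it was 3.08 with the likelihood ratio test (adjusted p = 0.0304) and with the exact test (adjusted p = 0.0381). The cause was not tested. Limma-voom gave 3.34 for Mmp9 and 1.83 for Timp1, with unadjusted p-values of 0.0609 and 0.105, and turned Mmp3 to -0.13. With 1 rat left out, the count at an unadjusted p under 0.05 ranged from 3 to 5, and it was 3 without sham rat 2, where Mmp2 and Timp3 were no longer called. Mmp2 kept its call in 5 and Timp3 in 4 of these 10 fits, and Mmp15 was called lower in 4. With no filter the count was 6, with Mmp15 added, and with limma-voom it was 4. Mmp9 ranged from 3.45 to 4.67 and Timp1 from 1.78 to 3.38, each under an unadjusted p of 0.05 in all 10 fits, and Mmp14 was under it in all 10 as well. Timp4 ranged from -0.18 to 0.052, above 0 only without stimulated rat 7. The filter of 10 counts in 4 samples removed Mmp3, so that it has no value there. No paired analysis was possible because the groups share no rat number. Few reads limit Mmp3 in all rats and Mmp9 in sham rats.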
